A study of Mus musculus with 130 samples.

Results

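The 10 carboxylesterase genes described here were Ces1b, Ces1c, Ces1d, Ces1e, Ces1f, Ces1g, Ces2a, Ces2e, Ces3a and Ces3b, taken as a list of symbols and matched to Ensembl identifiers. All 10 were found among the 35274 genes of the diet table and the 35711 genes of the strain table, and all 10 passed the filter on low counts in both. Liver RNA came from male mice, 1 piece of the large lobe per mouse. In the diet study, C57BL/6J mice in groups of 3 ate chow, a 50 ppm iron diet, a 500 ppm iron diet, 2% carbonyl iron (20000 ppm), or this 2% diet made with cellulose. In the strain panel, 114 strains had 4 weeks of chow and then 6 weeks of the 2% diet, 1 mouse per strain except 129X1/SvJ with 2. The panel held 56 BXD strains (C57BL/6J crossed to DBA/2J), 20 AXB/BXA strains (C57BL/6J and A/J), 4 BXH, 3 CXB and 31 other inbred strains. All panel mice ate the same iron-loaded diet, so strain differences could not be compared with a diet without added iron, and 1 mouse per strain leaves strain and mouse together in each value.

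Carboxylesterases are serine hydrolases, most of them held in the endoplasmic reticulum, that split ester, amide and thioester bonds in drugs, toxins and lipids. Hepatocytes are among their richest sources, and rodents carry many copies of the genes in tandem. Ces1d encodes triacylglycerol hydrolase, which frees stored triglyceride for assembly into very low density lipoprotein, and Ces1f encodes a related hydrolase, TGH-2. Ces1c encodes a form secreted into rodent plasma, and Ces1e encodes egasyn, the protein that holds beta-glucuronidase in the endoplasmic reticulum. Ces1g is the mouse gene long listed as Ces1 and acts on lipid esters. Ces2 enzymes prefer esters with a small acyl group and a large alcohol group, and Ces3a and Ces3b encode a pair of close liver esterases.

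The 10 genes lie in 2 tandem clusters on chromosome 8 (GRCm38, GENCODE M21). The Ces1 and Ces5 cluster, at chr8:93020214-93535830 on the minus strand, holds 9 genes, 6 of them described here. The Ces2, Ces3 and Ces4 cluster, at chr8:104734003-105150109, holds 11 genes on the plus strand, 4 of them described here. Ces1b lies at chr8:93056728-93080017 and Ces1c at chr8:93099015-93131283. Ces3a lies at chr8:105048601-105058413 and Ces3b at chr8:105083753-105093929. The coding sequences of Ces3a and Ces3b were 95.3% identical, those of Ces1b and Ces1c 88.7% and those of Ces2a and Ces2e 83.3%. Over all 45 pairs, identity lay between 72.0% and 95.3% within a subfamily and between 54.7% and 59.4% across subfamilies. Of all 31-base words in their annotated transcripts, Ces3a shared 34.9% with Ces3b and Ces3b shared 35.7% with Ces3a, so the split of reads between these 2 genes is uncertain. Ces1b shared 19.8% of its words with Ces1c, and Ces2a shared 24.7% with the predicted gene Gm7208. For Ces1d, Ces1e, Ces1f, Ces1g and Ces2e, 3.36% to 8.68% of words were shared with any other gene.

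The RefSeq promoter table (GRCm38.p6) held 8 start sites for 7 of the 10 genes, and none for Ces1d, Ces1f and Ces3a. The upstream windows of Ces1b and Ces1c are shown because these 2 genes kept a near-constant count ratio in most strains of the panel. Each gives the 250 bases before 1 start site, 5′ to 3′ on the minus strand (chr8:93079941-93080190 for Ces1b and chr8:93131284-93131533 for Ces1c), and capitals mark runs of at least 20 bases present in both windows.
Ces1b: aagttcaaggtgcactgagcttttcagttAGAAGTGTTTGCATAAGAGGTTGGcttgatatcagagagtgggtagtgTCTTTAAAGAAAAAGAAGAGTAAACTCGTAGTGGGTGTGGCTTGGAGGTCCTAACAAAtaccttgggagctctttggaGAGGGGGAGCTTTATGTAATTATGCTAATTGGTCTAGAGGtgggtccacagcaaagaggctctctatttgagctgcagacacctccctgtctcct
Ces1c: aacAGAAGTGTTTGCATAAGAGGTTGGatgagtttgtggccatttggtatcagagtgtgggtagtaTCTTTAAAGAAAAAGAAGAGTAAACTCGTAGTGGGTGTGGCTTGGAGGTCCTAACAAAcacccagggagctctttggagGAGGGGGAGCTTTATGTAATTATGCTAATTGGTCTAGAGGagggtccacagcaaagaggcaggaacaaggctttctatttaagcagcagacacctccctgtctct
The shared runs covered 122 bases of each window, the longest was 58 bases, and the aligned windows were 76.2% identical.

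The windows of Ces2a and Ces3b are shown because Ces2a had the largest fall of the 10 genes on 2% iron against chow, and Ces3b with cellulose against 50 ppm. They run on the plus strand (chr8:104733753-104734002 and chr8:105083505-105083754), and capitals mark matches to TTGCNNAA, a motif of C/EBP factors, and to TATAAA, the TATA box.
Ces2a: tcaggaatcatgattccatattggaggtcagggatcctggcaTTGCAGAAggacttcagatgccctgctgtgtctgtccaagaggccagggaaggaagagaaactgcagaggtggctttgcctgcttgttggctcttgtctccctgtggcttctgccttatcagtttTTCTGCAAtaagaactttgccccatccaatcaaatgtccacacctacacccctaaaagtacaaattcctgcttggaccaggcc
Ces3b: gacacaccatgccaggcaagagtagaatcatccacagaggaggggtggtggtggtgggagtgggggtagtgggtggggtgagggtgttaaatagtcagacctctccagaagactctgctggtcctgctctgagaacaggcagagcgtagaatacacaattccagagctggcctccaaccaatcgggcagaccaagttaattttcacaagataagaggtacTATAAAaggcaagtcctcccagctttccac
On either strand, TTGCNNAA was present in 5 of the 8 windows (both of Ces1b, and Ces1c, Ces2a and Ces2e) and in 9.56% of 32851 promoters. Both Ces1b windows overlap and hold the same site, and the Ces1c match lies in a run shared with Ces1b. These matches are therefore not independent. TATAAA was present in the window of Ces3b, in that of Ces1g on the opposite strand only (read as TTTATA), and in 12.4% of promoters. GTTAAT, a short HNF1 motif, was present in the Ces3b window and in 6.43% of promoters. No window held the longer HNF1 motif that was searched, CAAAGTCCA (HNF4), TTCNNNGAA (STAT) or TGACNNNGC (the antioxidant response element), which were present in 0.134%, 0.384%, 7.02% and 10.2% of promoters. The 2 HNF1 motifs overlap as letters, and a match is a match of letters only.

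Totals per library were 10.4 to 20.4 M counts for the 15 diet mice and 9.41 to 20.6 M counts for the panel. The 12 hepatocyte markers checked were detected in every diet mouse, and Cpa1, Pnlip and Prss2 (exocrine pancreas), Lep (adipocytes) and Cdx1 (intestine) had 0 counts in all 15. Other genes of these lists were present: Fabp2 and Lgals4 (intestine) had 269 to 943 and 99 to 518 counts, and Cela2a (exocrine pancreas) 2 to 8. Summed macrophage markers (8 genes) lay between 62.4 and 118 TPM (a level per transcript length) on 50 ppm iron and between 272 and 315 TPM on 2% iron. Summed erythroid markers (6 genes) lay between 76.8 and 134 TPM and between 660 and 1069 TPM in the same groups, and summed intestine markers (4 genes) between 95.1 and 119.9 TPM and between 37.9 and 62.4 TPM. In the library labelled BXD65/RwwJ the summed Y-linked CPM (counts scaled to the library total) was 3.94, against 118 to 328 in the other strains, which goes against its label of male.

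On the 50 ppm diet, Ces1c stood highest of the 10 genes at 1084 ± 152 TPM (SD, n = 3), and Ces3a followed at 885 ± 231 TPM. Ces1d (315.7 ± 88.2 TPM), Ces1f (272 ± 48.9) and Ces3b (208 ± 48.96) came next. Ces2a (104.04 ± 20.3 TPM), Ces2e (81.9 ± 5.03), Ces1e (72.8 ± 15.6) and Ces1g (54.4 ± 7.51) were lower, and Ces1b was lowest, at 17.8 ± 1.98 TPM. In this order the means of Ces1c and Ces3a, of Ces1d and Ces1f, and of Ces2e and Ces1e lay within the SD of at least 1 gene of the pair, and the other neighbours lay further apart than either SD. Together the 10 genes gave 0.511 ± 0.0650% of all counts on 50 ppm iron and 0.350 ± 0.0174% on 2% iron.

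**Figure D1:**
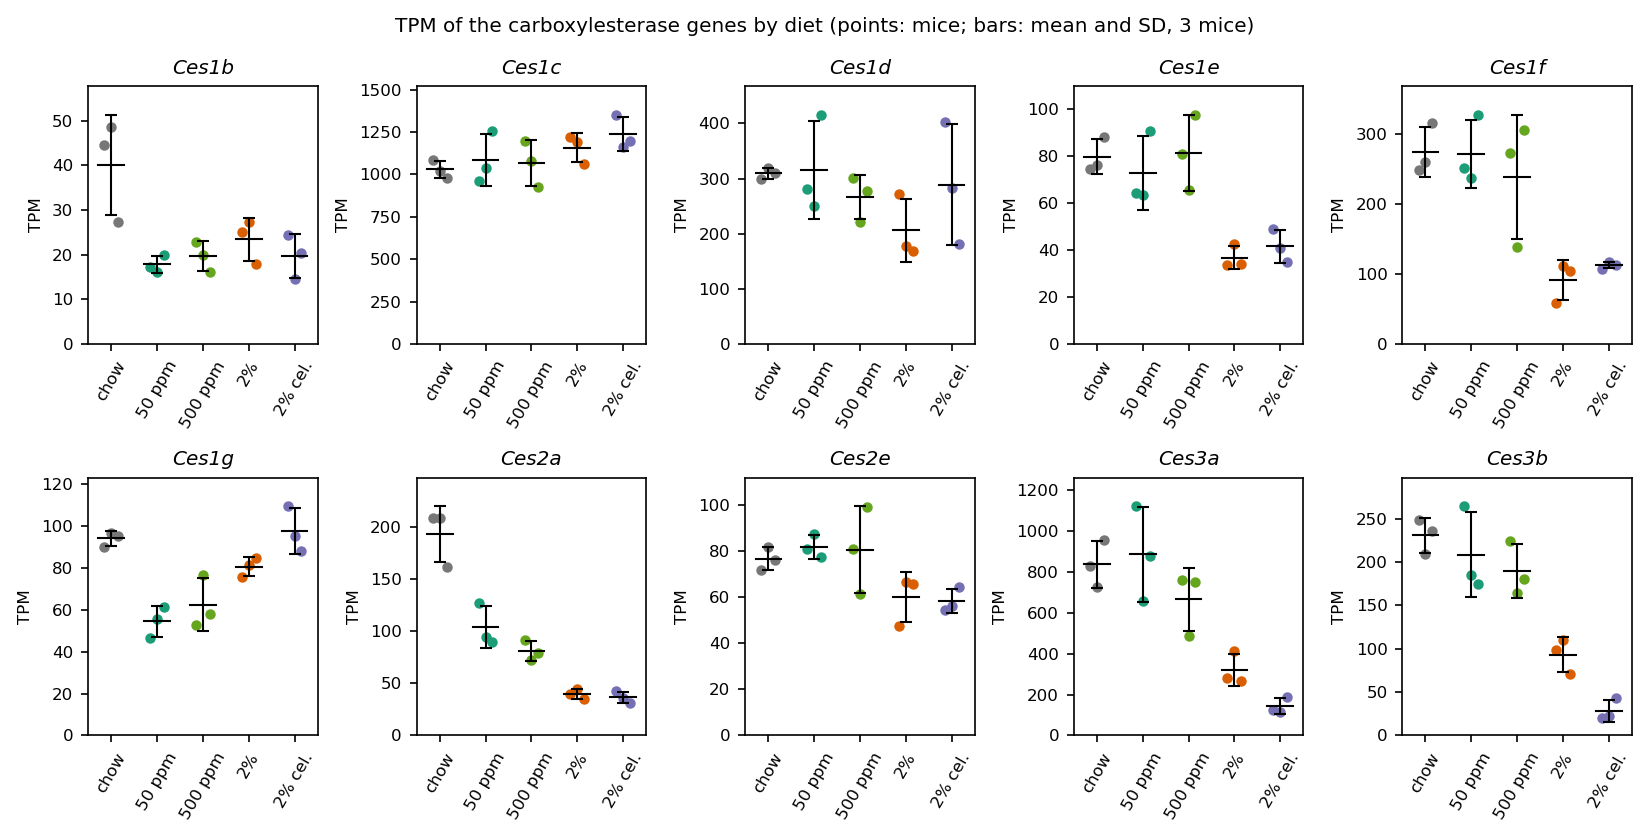
TPM of each of the 10 genes (vertical axes, linear from 0) in the 5 diet groups, with 1 point per mouse and the mean and SD of 3 mice. The 2% iron mice lie below all 50 ppm mice for Ces1e, Ces1f, Ces2a, Ces2e, Ces3a and Ces3b and above them for Ces1g, and Ces1c lies between 928 and 1352 TPM in every mouse.

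The comparison of 2% with 50 ppm iron asks how iron loading changes these genes in 1 strain. On 2% iron, Ces1e, Ces1f, Ces2a, Ces3a and Ces3b fell and Ces1g rose, 6 of 10 genes against 15.7% of all 13560 genes tested. By direction, 5 of 10 fell against 7.17% of all genes and 1 rose against 8.52%. The median log2 change of the 10 genes was -0.85, beside 0.01 over all genes. In 7 of the 10 genes the CPM of the 2 groups did not overlap, against 36.8% of all genes. In RNA of whole liver tissue, fewer cells of a type and less RNA per cell cannot be told apart. The macrophage and erythroid markers given above were higher on 2% iron and the intestine markers lower, and their part in these results was not tested. Summed hepatocyte markers lay between 45049 and 56095 TPM on 50 ppm and between 53285 and 60782 TPM on 2% iron.

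Within the Ces1 subfamily the 6 genes did not move as 1 group. Ces1f, the TGH-2 gene, had 250.8, 236.7 and 328 TPM on 50 ppm iron and 59.0, 111 and 103.95 TPM on 2% iron. All 3 iron-loaded mice were below all 3 mice on 50 ppm, and mean CPM fell from 332 ± 57.02 to 107 ± 25.9 (SD, n = 3 each; log2 change -1.63, SE 0.25, adjusted p = 0.00128, edgeR quasi-likelihood test). Ces1e, the egasyn gene, had 64.2, 63.2 and 90.8 TPM on 50 ppm and 33.6, 42.4 and 33.96 TPM on 2% iron. The 2 groups were apart, and its log2 change was -1.05 (SE 0.17, adjusted p = 0.00144). Ces1g went the other way, from 46.4, 55.4 and 61.3 TPM to 75.6, 81.2 and 84.7 TPM, with no overlap. Its log2 change was 0.51 (SE 0.14, adjusted p = 0.0279), a call that was lost without 50 ppm replicate 1 (adjusted p = 0.109) or 2 (0.0697), or without 2% replicate 2 (0.0544) or 3 (0.105).

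Ces1d, Ces1c and Ces1b did not pass the test. Ces1d, the triacylglycerol hydrolase gene, had 281, 250 and 416 TPM on 50 ppm and 272, 177 and 169 TPM on 2% iron, with overlap (log2 change -0.65, adjusted p = 0.103). Ces1c, the plasma form, had a log2 change of 0.04 (SE 0.11, adjusted p = 0.861), and its sign turned when 50 ppm replicate 2 or 2% replicate 1 was left out. Ces1b had 17.3, 16.2 and 20.0 TPM on 50 ppm and 25.1, 27.3 and 17.95 TPM on 2% iron, with overlap (log2 change 0.33, adjusted p = 0.364).

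Both Ces2 genes were lower in every iron-loaded mouse. Ces2a had 127, 94.8 and 89.9 TPM on 50 ppm and 40.1, 44.8 and 34.9 TPM on 2% iron (log2 change -1.46, SE 0.19, adjusted p = 5.34e-04). The 3 iron-loaded mice lay close together, below all mice on 50 ppm. Ces2e had 80.9, 87.4 and 77.6 TPM on 50 ppm and 47.4, 66.8 and 66.1 TPM on 2% iron, without overlap, but did not pass the test (log2 change -0.51, SE 0.18, adjusted p = 0.0641; DESeq2 gave 0.0301).

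The Ces3 genes carried most of the summed fall. Together they had 1094 ± 273 TPM on 50 ppm and 413 ± 96.9 TPM on 2% iron, while all 10 genes summed to between 2685 and 3389 TPM and between 1908 and 2261 TPM. Ces3a had 1121, 658.8 and 876 TPM on 50 ppm and 281, 412 and 266 TPM on 2% iron. The groups were apart although 50 ppm replicate 1 stood well above the other two (log2 change -1.52, SE 0.24, adjusted p = 0.00144). Ces3b had 265, 185 and 175 TPM and 98.9, 110 and 70.96 TPM, also apart (log2 change -1.27, SE 0.26, adjusted p = 0.00576). Because of the shared sequence, the 2 genes are not independent measurements.

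**Figure D2:**
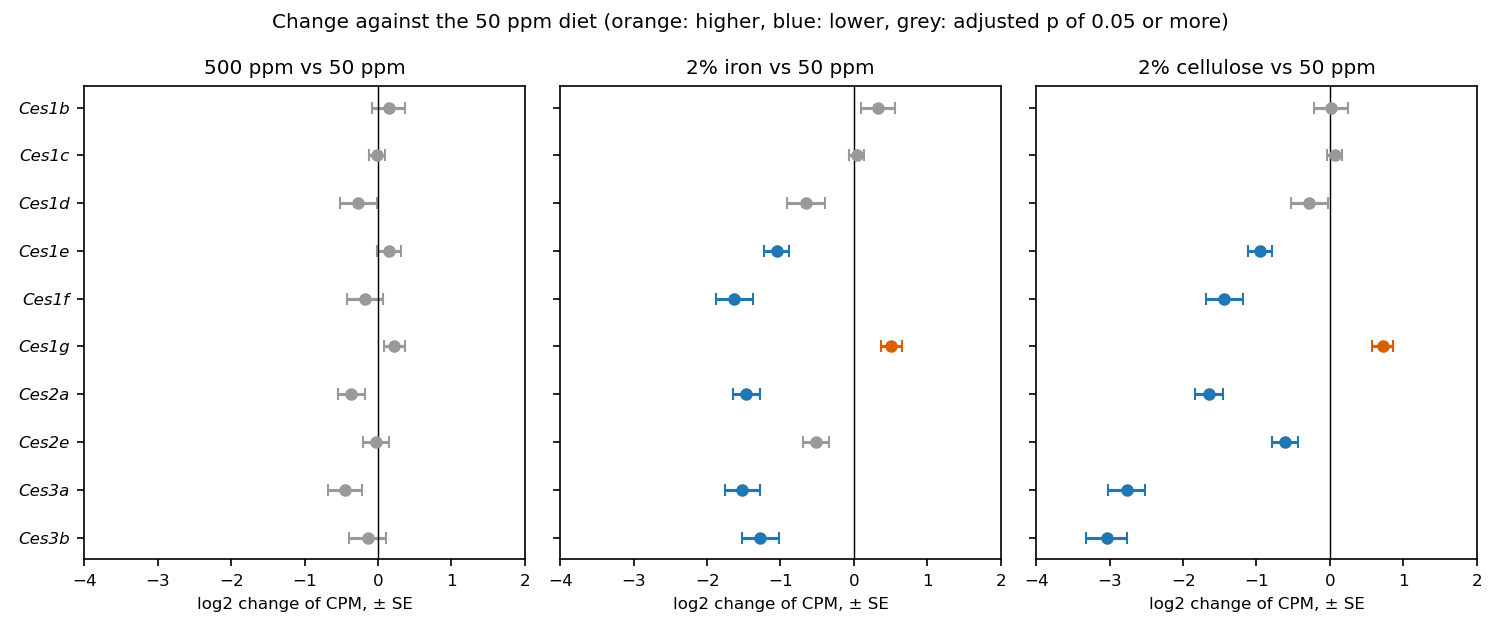
Log2 change of CPM (horizontal axis, ± SE) of each gene on 500 ppm, 2% and 2% iron with cellulose, each against the same 3 mice on 50 ppm. On 500 ppm no gene passed the test; on 2% iron 5 were lower and 1 was higher; with cellulose 6 were lower and 1 was higher.

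At 500 ppm, the middle iron level, none of the 10 genes differed from 50 ppm in the edgeR test, in which 0% of genes were called. At an unadjusted p under 0.05 the count was 0 of 10 genes, beside 3.16% of all genes, and DESeq2 and limma also called 0 of the 10. The log2 changes lay between -0.45 (Ces3a) and 0.22 (Ces1g). Ces3a had 760, 488.6 and 750 TPM on 500 ppm, 1 of them below the 50 ppm range, and Ces1f had 273, 139 and 306 TPM. The low value of both was that of 500 ppm replicate 2, the library with the most counts. That mouse also had more erythroid marker RNA than the other two on 500 ppm (254 TPM against 59.2 and 76.4) and more macrophage marker RNA (130.4 TPM against 67.3 and 80.9), whose part in the low values was not tested.

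Against 500 ppm, 5 genes were lower on 2% iron, beside 11.3% of all genes called and 4.75% called lower. Ces1e fell by 1.21 on the log2 scale (adjusted p = 6.81e-04), Ces1f by 1.45 (0.00278), Ces2a by 1.10 (0.00272), Ces3b by 1.13 (0.0124) and Ces3a by 1.08 (0.0104), all by edgeR. Without 2% replicate 3, Ces3a (adjusted p = 0.0505) and Ces3b (0.0605) missed the threshold, which left 3 genes called. Without 500 ppm replicate 2, Ces1g (0.0235) and Ces2e (0.0221) passed as well, which made 7. This comparison and that with 50 ppm share the 2% mice, so their results are not independent.

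With cellulose in the 2% diet the Ces3 genes were lower still. Ces3b had 20.5, 21.99 and 43.3 TPM with cellulose, all below the 70.96 to 110 TPM of the other 2% mice. Its log2 change was -1.77 (SE 0.27, adjusted p = 0.0223, edgeR), the only call among the 10 genes, beside 0.0811% of all genes called and 0.0737% called lower. The share of all genes called was 0% without cellulose replicate 2 and 1.54% without cellulose replicate 3. Ces3a had 127, 113 and 187 TPM, below the lowest 2% value of 266, with a log2 change of -1.25 (adjusted p = 0.0578; DESeq2 gave 6.51e-05). The Ces3b call was lost without 2% replicate 1 (adjusted p = 0.053) or 2 (0.109), without cellulose replicate 1 (0.157) or 2 (0.126), and when the 2 groups were fitted alone (0.0911). Both groups carried 2% iron, and only the labels of the cellulose group name a fiber source. Ces3b was at 13.4%, 15.2% and 20.7% of Ces3a counts with cellulose and at 29.3%, 23.1% and 21.1% in the other 2% mice. This difference was not tested. The 50 ppm mice had 20.0%, 23.9% and 18.4%, within the range of these groups. The split of reads between the 2 genes is uncertain.

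Set against the same 50 ppm mice, the cellulose group had 6 genes lower and 1 higher, beside 29.7% of all genes called, 14.3% lower and 15.4% higher. Ces3b fell by 3.04 on the log2 scale (adjusted p = 1.8e-05) and Ces3a by 2.77 (1.76e-05). Ces2a (log2 change -1.65, adjusted p = 9.1e-05), Ces1f (-1.44, 0.00111), Ces1e (-0.95, 0.0011) and Ces2e (-0.62, 0.018) were lower too, and Ces1g was higher (0.72, 0.00265). The Ces2e call was lost without 50 ppm replicate 1 (0.0629) or 2 (0.0519) or cellulose replicate 1 (0.0616), and under limma on log2(TPM + 1) (0.0541) and log2(TPM + 0.1) (0.0557). In the summed levels, the Ces3 genes had 171 ± 51.6 TPM with cellulose and the Ces1 genes 1798 ± 216 TPM, close to the 1817 ± 307 TPM of the Ces1 genes on 50 ppm.

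Chow differs from the purified diets in more than iron. Chow mice had more Ces2a, Ces1g and Ces1b RNA than mice on 50 ppm, 3 of 10 genes beside 0.391% of all genes called and 0.265% called higher. Ces1b had 44.4, 48.5 and 27.2 TPM on chow, all above the 50 ppm mice (log2 change 1.25, adjusted p = 0.0363, edgeR). Ces1g had 90.1, 96.7 and 95.3 TPM on chow (log2 change 0.87, adjusted p = 0.0213). Its SD on chow was the smallest of the groups in TPM but not in CPM. Ces2a had 208, 209 and 162 TPM on chow, above every mouse on a purified diet (0.95, adjusted p = 0.0439). These 3 calls did not hold when single mice were left out. Leaving out chow replicate 1 or 2, or 50 ppm replicate 2 or 3, left 0 called, leaving out 50 ppm replicate 1 left 1, and limma on log2(TPM + 1) called 0.

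Against chow, 6 genes were lower on 2% iron and none higher, beside 22.8% of all genes called and 10.9% called lower. Ces2a had the largest fall of the 10, 2.42 on the log2 scale (adjusted p = 1.41e-05). Ces1f (log2 change -1.75, adjusted p = 4.07e-04), Ces3b (-1.52, 0.00118), Ces3a (-1.50, 7.32e-04), Ces1e (-1.25, 2.5e-04) and Ces1b (-0.92, 0.00927) fell too. The Ces1b call was lost without chow replicate 2 and under limma (adjusted p = 0.0501 and 0.0521). Ces1g had a log2 change of -0.36 against chow (adjusted p = 0.0871), opposite in sign to its rise against 50 ppm, and the contrasts share the 2% mice.

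Of the 10 other carboxylesterase genes, 5 passed the filter in the diet study. Of these, 1 (Ces2c) was called on 2% iron against 50 ppm, beside 15.7% of all genes. Ces2c, which lies between the 2 Ces2 genes above, had 13.7, 8.61 and 5.61 TPM on 50 ppm and 0.910, 0.933 and 1.78 TPM on 2% iron (log2 change -2.997, SE 0.55, adjusted p = 0.0036). On chow it had 22.2, 27.7 and 23.7 TPM, above all other mice. Of its 31-base words, 42.9% are shared with the pseudogene Ces2d-ps, so its level is uncertain. Ces2g had a log2 change of 0.38 (adjusted p = 0.0794), Ces2b -0.36 (0.603), Ces2f -0.59 (0.263) and Ces4a -1.30 (0.199). Against chow, Ces2c was lower on 2% iron (log2 change -4.48, adjusted p = 1.6e-04) and Ces2g higher (0.47, 0.0256). With cellulose against 50 ppm, Ces2c (-2.72, 0.00235) and Ces4a (-2.18, 0.0317) were lower and Ces2g higher (0.47, 0.0203). Ces1a, Ces1h, Ces2d-ps, Ces2h and Ces5a were too low to test, with group means of at most 0.303 TPM.

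Other gene lists were counted in the same comparison of 2% with 50 ppm iron, in which 15.7% of all genes were called. Of 20 other lipid and ester hydrolases, 3 fell and none rose on 2% iron, with a median log2 change of -0.17. These were Abhd6, a monoacylglycerol hydrolase (log2 change -0.74, adjusted p = 0.026), Pon1, a paraoxonase carried on lipoproteins (-0.47, 0.0373), and Pnpla8, a phospholipase (-0.26, 0.0327). Of 12 genes of lipoprotein assembly and lipid droplets, the apolipoprotein gene Apoc3 rose (1.05, 0.00129), Cideb fell (-0.36, 0.00595) and the others did not pass. Of 16 genes of the xenobiotic receptors CAR and PXR, 2 rose, Cyp2b10 (5.63, 0.00684) and Gstm3 (1.59, 0.00176), and Nr1i3, which encodes CAR, fell (-0.95, 0.0105).

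In the same comparison, 7.17% of all genes tested were called lower and 8.52% higher. Of 12 hepatocyte genes, 3 fell, Apoa1 (log2 change -0.86, adjusted p = 0.00112), Serpina1c (-0.70, 0.0264) and Cebpa (-0.40, 0.0321), and none rose. Of 15 male-biased liver genes, 14 fell and none rose, with a median log2 change of -2.55, and the largest falls were those of Mup7 (-8.29, 4.89e-04), Cyp4a12b (-4.05, 4.89e-04) and Cyp4a12a (-3.93, 1.44e-04). Of 16 female-biased genes tested, Cyp2a4 (6.66, 0.0279), Cyp2b9 (6.56, 0.0145) and Fmo2 (1.79, 0.0296) rose and none fell. The median log2 change of these 16 was 2.51. It was 2.12 for 500 against 50 ppm, with none called, and -0.12 for 2% iron against 500 ppm. On 500 ppm, Cyp2a4 had 49.3 ± 83.8 CPM and Cyp2b9 48.6 ± 83.2 CPM, with SDs above the means. The male-biased list fell in the same mice as Ces3a and Ces3b. With cellulose, 15 of 15 were lower than on 50 ppm, beside 14.3% of all genes called lower. The part of this list in the Ces results was not tested.

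Across the 114 strains on the 2% diet the 10 genes differed far more than between mice of 1 diet group. The SD of log2 CPM over strains was 1.97 (Ces1d) to 6.64 (Ces3a) times the pooled SD within diet groups. No test was made of this, since the 2 tables were normalized separately. The 2 mice of 129X1/SvJ differed by 0.04 (Ces1c) to 0.84 (Ces3a) on the log2 scale. The summed level of the 10 genes had a median of 2486 TPM and ran from 638 TPM in NZB/BlNJ to 3868 TPM in BALB/cJ.

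**Figure D3:**
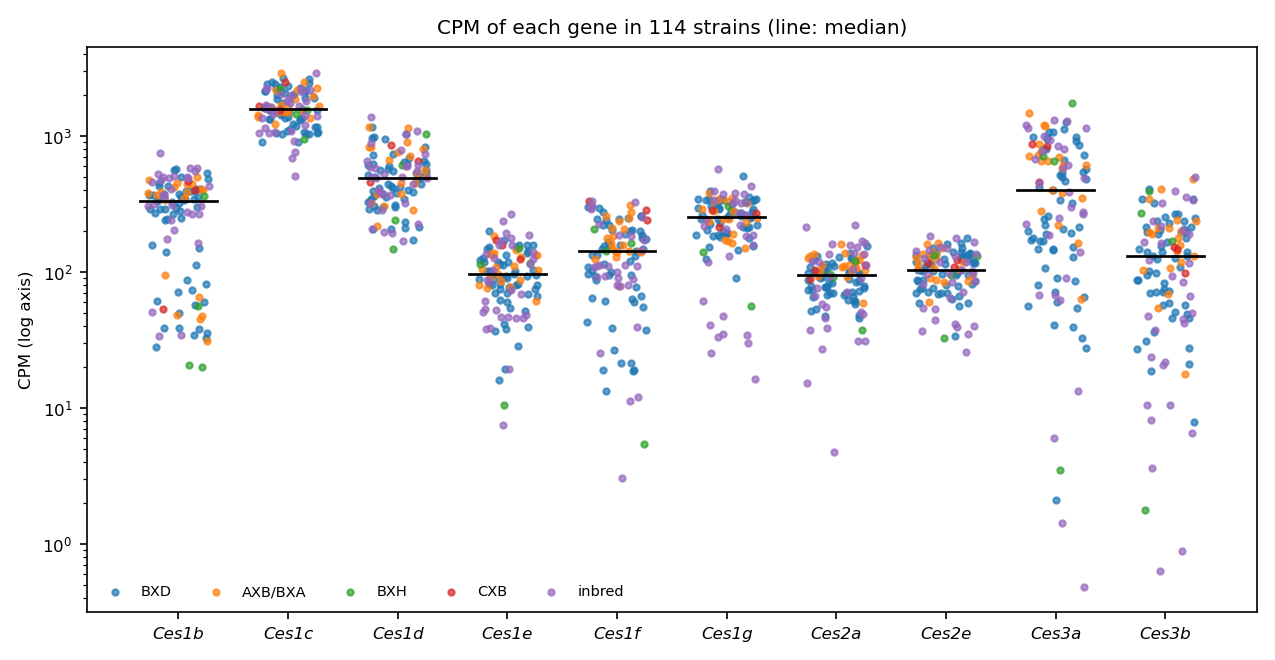
CPM (vertical log axis) of each gene in each of the 114 strains, coloured by strain family, with a line at the median. Ces3a spans 0.484 to 1739 CPM and Ces3b 0.634 to 495.4 CPM, while Ces1c stays between 508.6 and 2899 CPM.

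By level per length, Ces1c was again highest, with a median of 1013 TPM. Ces1d (373 TPM), Ces3a (252), Ces1b (195), Ces1f (128) and Ces1g (119) followed, then Ces3b (93.3 TPM), Ces2e (59.8), Ces1e (59.6) and Ces2a (54.8). The quartiles of Ces1d (287 and 501 TPM) and of Ces3a (93.6 and 481 TPM) overlapped, and Ces2e, Ces1e and Ces2a were within 5.03 TPM of each other, the SD of Ces2e within the 50 ppm group.

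The Ces3 genes had the widest range. Ces3a lay at 0.484 CPM in NZB/BlNJ, and at 1739 CPM in BXH14/TyJ, with a median of 398 CPM, and its lowest estimated count in any library was 6.19. Ces3b lay at 0.634 CPM in BALB/cJ and at 495.4 CPM in CBA/J, with a median of 130.2 CPM. The closely related BALB/cByJ had 605 CPM of Ces3a and 121 CPM of Ces3b where BALB/cJ had 1.43 and 0.634 CPM. Ces1f likewise was at 12.04 CPM in BALB/cJ and 324 CPM in BALB/cByJ, with 1 mouse each. NZB/BlNJ and BXH2/TyJ were among the 5 lowest strains for Ces1e, Ces1f, Ces3a and Ces3b alike, and BALB/cJ and BTBR T<+> tf/J were among them for 3 of these 4.

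The Ces2 genes had narrower ranges than the Ces3 genes apart from single strains. Ces2a had quartiles of 69.7 and 114.8 CPM, with 4.75 CPM in KK/HlJ at the low end and 219 CPM in C3H/HeJ at the high end. Ces2e ran from 25.6 CPM in NZB/BlNJ to 183 CPM in CE/J. Within the Ces1 genes, Ces1d ran from 146 CPM (BXH14/TyJ) to 1373 CPM (BALB/cByJ), Ces1e from 7.43 CPM (NZB/BlNJ) to 266 CPM (CBA/J) and Ces1f from 3.07 CPM (NZB/BlNJ) to 332 CPM (CXB7/ByJ).

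Ces1b fell into 2 separate clusters of strains, by a mixture of 2 normal distributions on log2 CPM. In 34 strains it lay between 20.1 and 175 CPM and in 80 strains between 201.7 and 751 CPM. Ces1c went the other way, with a median of 2181 CPM in the 34 strains and 1454 CPM in the 80. Its ranges overlapped (508.6 to 2897 and 752 to 2899 CPM). The sum of Ces1b and Ces1c had medians of 2233 and 1875 CPM. The low cluster held 19 of 56 BXD, 6 of 20 AXB/BXA, 3 of 4 BXH, 1 of 3 CXB and 5 of 31 other inbred strains, these last being C57BL/6J, C57BLKS/J, C57L/J, BTBR T<+> tf/J and NZB/BlNJ. Of the parents, C57BL/6J had 33.7 CPM of Ces1b, DBA/2J had 275 CPM and A/J had 551 CPM. The gap between the clusters was narrow, from 175 to 201.7 CPM. Clusters were also found within the BXD strains alone (19 low and 37 high), within the AXB/BXA strains alone (6 and 14) and within the other inbred strains alone. Among these last, 3 strains were low (33.7 to 50.4 CPM) and 28 high (163 to 751 CPM), which placed BTBR T<+> tf/J and NZB/BlNJ in the high cluster.

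The count of Ces1b as a percentage of that of Ces1c, a ratio chosen after the values were seen, separated the strains more sharply. No strain lay between 6.08% (BXD36/TyJ) and 21.7% (PL/J), with 32 strains below this gap and 82 above it. The 2 strains of low Ces1b above the gap were BTBR T<+> tf/J (24.02%) and NZB/BlNJ (34.4%), and NZB/BlNJ also had the lowest Ces1c, at 508.6 CPM. In the 80 strains of high Ces1b the ratio had a median of 26.5% and quartiles of 25.5% and 27.5%. The SD of the log2 ratio there was 0.15, the smallest of the 45 pairs among the 10 genes, the next being 0.60 for Ces1c and Ces1d.

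In these 80 strains log2 CPM of Ces1b and Ces1c had Pearson's r = 0.916 and Spearman's rho = 0.913 (permutation p = 1e-05, the smallest that 100000 permutations can give; adjusted p = 8e-05 and 4e-05 over 8 relations). In the 34 strains of low Ces1b, r was -0.11 and rho 0.401 (adjusted permutation p = 0.603 and 0.0835). These 34 include BTBR T<+> tf/J and NZB/BlNJ, which lay above the gap in the ratio, and no value was computed without them. The 15 C57BL/6J mice of the diet study had ratios of 1.35% to 5.14%, on the low side of the gap, with the 3 highest in the chow group (3.02%, 4.45% and 5.14%). Ces1b shares 19.8% of its 31-base words with Ces1c, so the split of reads between the 2 genes is uncertain. They are not independent measurements, and the part of shared words in their ratio and correlation was not tested. The ratio of counts is used here to compare strains, not the levels of the 2 genes.

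**Figure D4:**
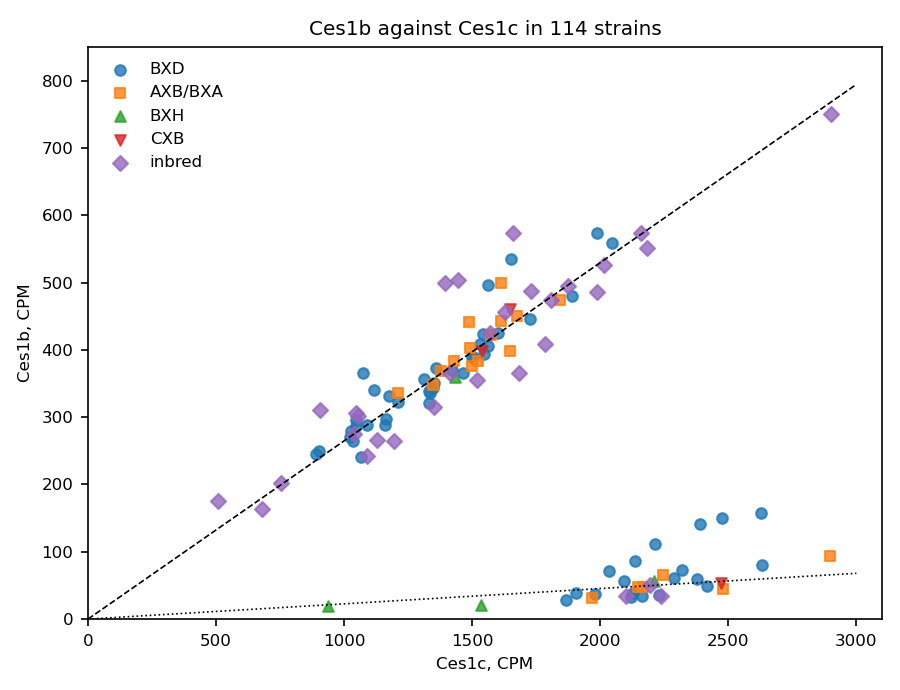
Ces1b CPM against Ces1c CPM in 114 strains, with a symbol per strain family; the dashed and dotted lines mark the median ratios of the high and low Ces1b strains (26.5% and 2.27%). No strain has a ratio between 6.08% and 21.7%.

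Ces1g also fell into 2 clusters, 11 strains between 16.2 and 89.3 CPM and 103 strains between 117 and 567.8 CPM. Of the 11 low strains, 9 were among the 31 other inbred strains (AKR/J, BTBR T<+> tf/J, BUB/BnJ, LP/J, NOD/ShiLtJ, NON/ShiLtJ, NOR/LtJ, PL/J and SJL/J), 1 was BXH2/TyJ and 1 was BXD24/TyJ-Cep290<rd16>/J, which carries the rd16 allele. No AXB/BXA or CXB strain was low. The gap was narrow, from 89.3 CPM in BXD24/TyJ-Cep290<rd16>/J to 117 CPM in NZB/BlNJ. Separate clusters were also found within the other inbred strains alone (9 low and 22 high). They were not found within the BXD or the AXB/BXA strains alone. In the 103 high strains Ces1g went with Ces1d most closely (r = 0.608, rho = 0.597, adjusted permutation p = 4e-05 and 8e-05).

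The other 8 genes, which showed no separate clusters, were compared pair by pair over the 114 strains. Of 28 pairs, 26 had a positive r at an adjusted permutation p under 0.05, and the median r was 0.52. The share of called pairs among other genes was not computed, here or within families. These counts are therefore not shown to be particular to the 8 genes. The closest pair was Ces1e and Ces1f (r = 0.891, rho = 0.826, adjusted p = 1.56e-05 and 2e-05; r = 0.855 without NZB/BlNJ and BXH2/TyJ). Ces3a and Ces3b followed (r = 0.876, rho = 0.813; 0.835 without NZB/BlNJ and BALB/cJ), and then Ces1f and Ces3a, which lie in different clusters on the chromosome (r = 0.835, rho = 0.745; 0.785 without NZB/BlNJ and BXH2/TyJ). By r, the 2 pairs not called were Ces1d with Ces3a (-0.03) and Ces1d with Ces3b (0.04). By rho, Ces1d and Ces3a had a negative value that passed (rho = -0.19, adjusted permutation p = 0.0499), and the pairs not called were Ces1d with Ces3b (rho = -0.06, adjusted permutation p = 0.528) and Ces1c with Ces3a (0.115, 0.232). Ces1c had lower values with the other genes, from 0.271 with Ces3a to 0.531 with Ces2a, and its r with Ces3a dropped to 0.115 without NZB/BlNJ and BTBR T<+> tf/J, so that relation rests on those strains.

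**Figure D5:**
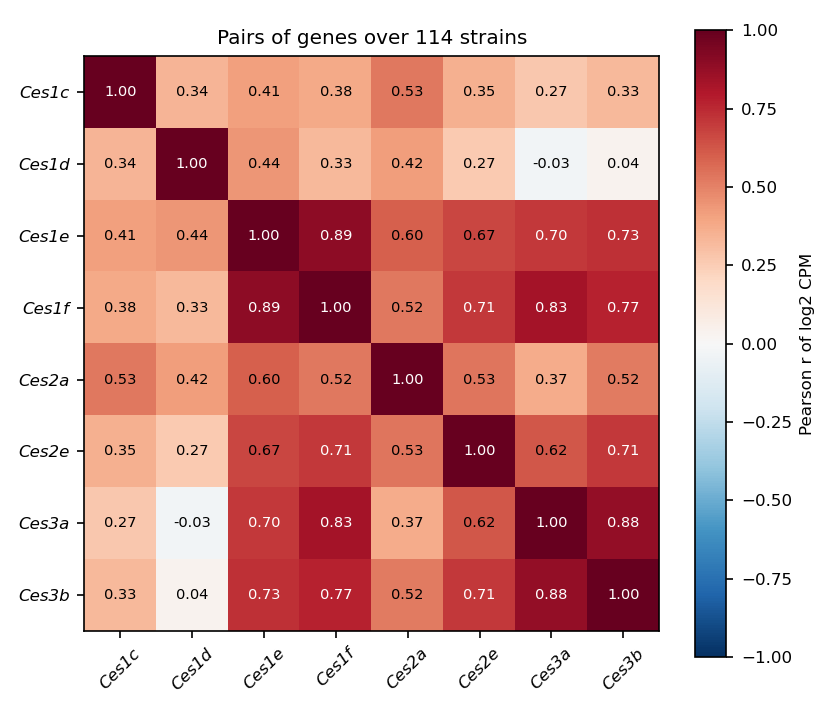
Pearson's r of log2 CPM over 114 strains for the 8 genes without separate clusters (colour scale from -1 to 1, value in each cell). Ces1e, Ces1f, Ces2e, Ces3a and Ces3b form a block with r from 0.62 to 0.89, and Ces1d has r of -0.03 and 0.04 with the Ces3 genes.

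Within the BXD, AXB/BXA and other inbred strains the same 3 pairs led by r, but not by rho. By rho, Ces1f and Ces3b (0.790) stood above Ces1f and Ces3a (0.770) in the BXD strains. In the other inbred strains Ces2e and Ces3b (0.794) stood above Ces1f and Ces3a (0.713). In the AXB/BXA strains Ces2a and Ces3b (0.534) stood above Ces1e and Ces1f (0.507). In the 56 BXD strains 21 of 28 pairs were called, with Ces1e and Ces1f at r = 0.870, Ces3a and Ces3b at 0.851 and Ces1f and Ces3a at 0.737. There, Ces1d and Ces3a had a negative r of -0.34 (rho = -0.35, adjusted permutation p = 0.0173 and 0.0157). In the 20 AXB/BXA strains 3 pairs were called by r and 0 by rho. In the 31 other inbred strains 21 pairs were called, and Ces3a and Ces3b reached r = 0.925.

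The genes with the most similar pattern were sought among 11856 expressed genes, as a description over strains that share diet, protocol and, within families, parents. Over 114 strains these were Sult2a8 for Ces3a (r = 0.891), Acbd5 for Ces1f (0.875), Cyp2j5 for Ces3b (0.869), Cat for Ces1e (0.843), Acot4 for Ces1d (0.810), Acsl5 for Ces2e (0.780), Aldh4a1 for Ces2a (0.762) and Gcdh for Ces1c (0.640). Over the BXD strains alone they were Nat8f2 for Ces3a (0.920), Acbd5 for Ces1f (0.883), Cat for Ces1e (0.834) and Ces3b (0.830), Acot4 for Ces1d (0.807), Fto for Ces1c (0.724), Cers2 for Ces2e (0.711) and Gstt1 for Ces2a (0.676). Of these, Gcdh and Fto lie on chromosome 8, 8.21 and 1.43 Mb from Ces1c. For the clustered genes, Vmn1r213 (for Ces1b) and Entpd5 (for Ces1g) were picked by r over all 114 strains, in which the clusters are mixed. No search was made within clusters. Vmn1r213 had r = 0.651 with Ces1b in the 80 high strains and 0.276 in the 34 low strains. Entpd5 had r = 0.584 with Ces1g in the 103 high strains and 0.258 in the 11 low strains. Vmn1r213, on chromosome 13, had 0.875 to 14.03 CPM.

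C57BL/6J is a parent of both the BXD and the AXB/BXA strains, with DBA/2J or A/J as the second parent. Of the 10 genes only Ces2a differed between them, beside 11.6% of 13794 genes called and 5.02% called lower in BXD. Its CPM was 87.0 ± 24.5 (SD, n = 56) in BXD and 113 ± 21.1 (n = 20) in AXB/BXA strains (log2 change -0.38, SE 0.10, adjusted p = 0.00445, edgeR, and 0.00256 to 0.00724 over 6 alternatives, among them without BXD65/RwwJ). Ces3a had 393 ± 354 and 623 ± 354 CPM, a difference within the spread of the strains (log2 change -0.66, adjusted p = 0.213). Ces1f (-0.43, adjusted p = 0.242), Ces3b (-0.42, 0.317), Ces1d (-0.30, 0.251) and Ces1e (-0.22, 0.383) had lower means in BXD without passing the test. The median log2 change of the 10 genes was -0.26, beside 0.01 over all genes.

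The parents, 1 mouse each and so without a test, differed in several of the 10 genes. DBA/2J had 1139 CPM of Ces3a and 320 CPM of Ces3b, and C57BL/6J had 247 and 66.1 CPM. A/J had 671 and 116 CPM of the same genes. Ces1c was at 2102 CPM in C57BL/6J, 2184 CPM in A/J and 1040 CPM in DBA/2J. Ces2a was at 54.96 CPM in C57BL/6J, 163 CPM in DBA/2J and 153 CPM in A/J. C57BL/6J was the lowest of these parents for all of the 10 genes except Ces1c.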

How the data were processed

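Liver RNA of 130 male mice was sequenced with the KAPA Stranded mRNA-Seq kit, per the labels' protocols. The deposited tables hold estimated counts per gene that need not be whole, not normalized, judged from the values, and the authors also deposited a TPM table of each study. The submitters' processing notes name kallisto 0.46 and mm10, with no further settings, and 1 reference for all strains could affect levels in strains that differ from it in sequence. The strand setting of the counting is not given in the sources used here. Symbols and coordinates came from GENCODE M21 (matching 34845 of 35274 diet identifiers and 35612 of 35711 panel identifiers). The labels name separate mice but give no batch, date or replicate number, and replicates were numbered in accession order. Members and gene lists were chosen with earlier results of these data known.

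Estimated counts were rounded and tested with the quasi-likelihood test of edgeR 4.0.16 in R 4.3.3 (TMM factors, filterByExpr, two-sided, Benjamini-Hochberg over all genes tested), with calls made at an adjusted p below 0.05. One model held all 15 diet mice, and a second one the BXD and AXB/BXA strains, with the strain as the replicate. CPM values use TMM factors, and log2 CPM a prior count of 2. Pair correlations had two-sided permutation p-values from 100000 resamples. Separate clusters required 3 or more strains in each, an Ashman D over 3 and a gain in BIC of more than 10. The adjustment had been written for 45 pairs, but 2 clustered genes left 28. Other settings tried were RLE scaling, a fit of the 2 compared groups alone, no filter or one of 10 counts per library, DESeq2 1.42.0, limma 3.58.1 on log2(TPM + 1) and log2(TPM + 0.1), a prior count of 0.5, centring within families, averaged substrains, leaving out BXD65/RwwJ, and each mouse left out in turn. On simulated counts for 2% against 50 ppm iron (13560 genes), 62% of 2-fold and 84% of 4-fold changes were recovered and 6.41% of calls were false. For BXD against AXB/BXA (13794 genes) these were 91%, 93% and 6.60%. Other tools were scikit-learn 1.9.0, Biopython 1.88, pandas 2.3.3, scipy 1.17.1, numpy 2.4.6 and matplotlib 3.10.9 under Python 3.11.15.

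Named are the 10 genes, all other carboxylesterases, up to 3 called genes with the largest change in each list, the expressed gene of highest r with each member (median of at least 1 CPM, no predicted genes or pseudogenes), and markers at 0. Genes of the cell type marker lists are given as sums.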

Additional observations from a re-analysis of the deposited data

Results flagged for a closer look

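Among the 4 BXH strains, BXH2/TyJ stood apart from the other three in 4 of the 10 genes by Dixon's test, which marks about 1 in 20 groups by chance. Ces1e was at 10.6 CPM in BXH2/TyJ and between 114 and 149 CPM in the others. Ces1f was at 5.42 CPM against 142.1 to 205 CPM. Ces3a was at 3.48 CPM against 646 to 1739 CPM, and Ces3b at 1.77 CPM against 169 to 393 CPM. These 4 genes correlate over the strains, so the 4 values come from 1 mouse and are not independent. In the same library summed hepatocyte markers were at 49445 TPM, the summed male-biased genes were at 232 TPM, the 5th lowest of 114 strains, and the summed macrophage markers at 149 TPM, the 108th highest. Their part in these values was not tested.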

How the results depend on the processing

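Results for 1 gene in 1 comparison were followed for all 10 genes in 2% iron against 50 ppm and BXD against AXB/BXA. In the other comparisons only genes with an adjusted p under 0.1 by edgeR, or the lowest or highest change, were followed. Of 53 such results, 29 were called. Of these, 20 stayed called under every alternative run and 0 changed direction, and 6 results not called in the edgeR fit were called under some alternative. The number of genes called, out of 10, stayed within 1.5 times of the reported count under every alternative for 2% iron against 50 ppm (5 to 6 with 1 mouse left out), against chow (5 to 7), for cellulose against 50 ppm (6 to 7), for 500 against 50 ppm (0 to 0) and for BXD against AXB/BXA. For 2% against 500 ppm it was 3 to 7 with 1 mouse left out. For chow against 50 ppm it was 3, but 1 with the 2 groups alone, 0 by limma on log2(TPM + 1), 1 by limma on log2(TPM + 0.1) and 0 to 3 with 1 mouse left out. For cellulose against 2% iron it was 1, but 2 without a filter, 2 with at least 10 counts in every library, 0 with the 2 groups alone, 2 by DESeq2 and 0 to 2 with 1 mouse left out. The cause was not tested. Among the results followed, signs turned only in those near 0 that were not called. The Ces1c change was -0.00786 without 50 ppm replicate 2 and -0.0115 without 2% replicate 1 (against 50 ppm, at most 0.0946 with a mouse left out), and -0.0278 without chow replicate 3 and -0.00665 without 2% replicate 1 (against chow, at most 0.0799). The Ces3a change of chow against 50 ppm was 0.00251 without chow replicate 1 and 0.253 without 50 ppm replicate 1, and at the lowest -0.203, that of Ces1g between families 9.63e-05 with averaged substrains, and r of Ces1d and Ces3b -0.042 on log2(TPM + 1). On that scale r of Ces1c and Ces1d was 0.128, no longer called. Over all genes, 2% iron against 50 ppm had 2127 calls by edgeR, 1075 by limma on log2(TPM + 1), 1014 with a pseudocount of 0.1 and 1003 without 50 ppm replicate 1. Cellulose against 2% iron had 11 by edgeR and 219 by DESeq2, and BXD against AXB/BXA 1606 and 836 by limma. No paired analysis was possible because the labels give no replicate numbers. The 1 mouse per strain leaves panel values without their own error.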

Other observations

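Ces2h, which was too low to test in the diet study, was at 78.8 CPM in KK/HlJ and 90.5 CPM in PL/J, and its upper quartile over the 114 strains was 0.804 CPM. KK/HlJ was also the strain with the lowest Ces2a, at 4.75 CPM, and its Ces3b count was 5.32% of its Ces3a count, the lowest of all strains, where the median was 35.4%. At the other end, Ces3b exceeded Ces3a in 8 strains, 7 of them BXD. The highest ratios were in BXD74/RwwJ (7.90 against 2.11 CPM), BXD51/RwwJ (140.1 against 40.9 CPM) and BXD38/TyJ (108.2 against 54.1 CPM), and NZB/BlNJ followed (183%). In PL/J Ces2a was at 136 CPM. Each value is from 1 mouse, and these strains were chosen after their values were seen.

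BALB/cJ had the highest Ces1b (751 CPM) and Ces1c (2899 CPM) of the panel together with the lowest Ces3b (0.634 CPM). In NZB/BlNJ, the lowest strain for Ces1c, Ces1e, Ces1f, Ces2e and Ces3a, summed hepatocyte markers were at 61509 TPM, beside a panel median of 63124 TPM. They were at 77686 TPM in BALB/cJ, 49445 TPM in BXH2/TyJ and 48937.5 TPM in BTBR T<+> tf/J, strains that were also among the lowest for several of these genes.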
